A study of Mus musculus with 12 samples.

Results

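Dual-specificity MAP kinase phosphatases (MKPs) were followed in bone marrow–derived macrophages (BMDMs) through 8 genes, *Dusp1*, *Dusp2*, *Dusp4*, *Dusp5*, *Dusp6*, *Dusp8*, *Dusp10*, and *Dusp16*, taken by symbol from the 43626 genes counted. All 8 were found, each as 1 gene, and all 8 passed the filter on low counts that left 14308 genes for testing. RNA-Seq was performed on 12 libraries of mouse BMDMs, 3 for each of 4 conditions. Cells received PBS as the control, 3′-sialyllactose (3′SL, 100 µg/mL, labelled HMO, a human milk oligosaccharide), lipopolysaccharide (LPS, 10 ng/mL, a bacterial activator of the receptor TLR4), or LPS together with 3′SL (LPS + 3′SL). The stimulation lasted 6 hours, and the labels name no strain, sex, age, or diet for the mice that gave these cells. The treatment field of the labels describes injections of mice with 3′SL or PBS, whereas their extraction field and the study describe BMDMs incubated with these agents, which is how the conditions are read here. The comparisons ask how LPS changed these phosphatases, and whether 3′SL changed them in resting or LPS-activated macrophages.

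The MAP kinases ERK, JNK, and p38 are switched on by phosphorylation of a threonine and a tyrosine, and MKPs switch them off by removing both phosphates. Many MKP genes are themselves induced by the kinases that they turn off, so that they form a negative feedback. In macrophages, MKPs are known to limit the duration of signaling downstream of TLR4 and with it the production of cytokines. Within the family, *Dusp1*, *Dusp2*, *Dusp4*, and *Dusp5* encode inducible nuclear enzymes, *Dusp6* encodes a cytoplasmic phosphatase selective for ERK, and *Dusp8*, *Dusp10*, and *Dusp16* encode phosphatases that prefer JNK and p38.

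Depth was 20411741 to 26851890 reads counted on genes per library (median 23375851), and 8 macrophage markers summed to 17640 to 30044 CPM in every library. Levels are CPM, the counts of a gene relative to the TMM-scaled library size. Genes that differed by 1.5-fold or more with an adjusted p below 0.05 (Benjamini-Hochberg, over all genes tested) in edgeR's quasi-likelihood test are referred to as called. The libraries fell into 3 sets of 4, 1 library per condition, which are the runs of consecutive library numbers in the labels. Set 1 held 529 to 616 CPM of 8 stromal markers, against 22.6 to 42.0 CPM in set 2 and 54.0 to 96.7 CPM in set 3, and set 3 held the highest sum of 6 neutrophil and progenitor markers in PBS, LPS, and LPS + 3′SL. The study describes its RNA-Seq replicates as biologically independent, but nothing in the labels says which cultures or mice gave them or what the libraries of a set shared, so p-values measure the spread between these libraries. Because these are bulk samples, fewer cells of a type and less RNA per cell cannot be told apart.

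LPS changed the mRNA of 4 of the 8 phosphatases: *Dusp2*, *Dusp16*, and *Dusp1* rose and *Dusp6* fell. Over all genes tested, 38.5% were called in this comparison, 18.3% higher and 20.2% lower, so that 3 higher and 1 lower of 8 stand beside a background of frequent change. The median change of the 8 members was 0.44 on the log2 scale, and that of all genes was −0.061. The same 4 members were called by DESeq2 (39.7% of all genes) and by edgeR with the library set as a block (44.6%). In each of the 4 the LPS and PBS libraries did not overlap, as in 27.3% of all genes with LPS higher and 31.1% with LPS lower. The plot of levels shows each library.

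**Figure D1:**
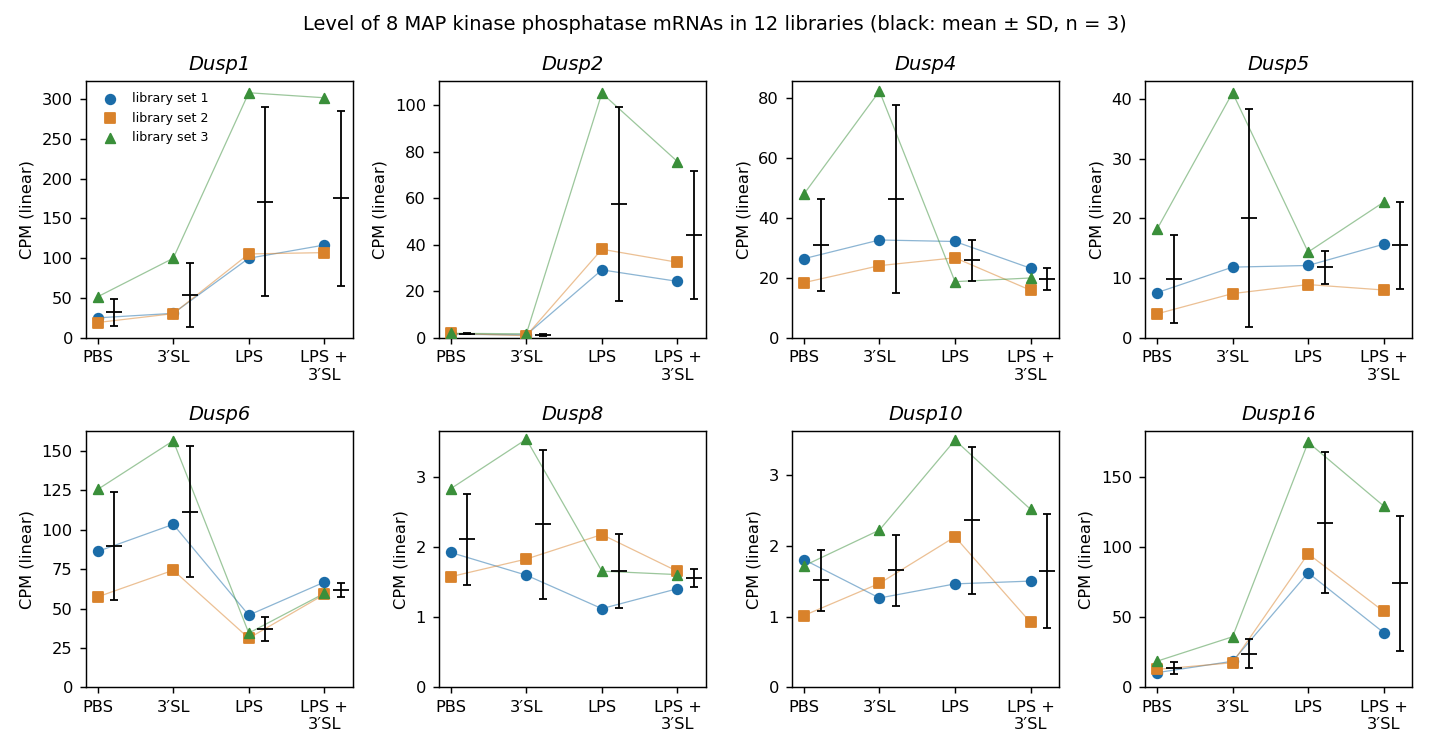
Level of each phosphatase mRNA (CPM, linear axis starting at 0) in the 4 conditions, with 1 point per library, lines joining the libraries of a set, and black bars for the mean and SD of 3 libraries. Dusp1, Dusp2, and Dusp16 lie above PBS in every LPS library, Dusp6 lies below, and set 3 is the highest in PBS and 3′SL for most members.

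*Dusp1* (ENSMUSG00000024190.6, chr17:26505590-26562128, minus strand, GRCm38) encodes MKP-1, a nuclear enzyme that dephosphorylates p38 and JNK. It was at 25.0, 19.1, and 51.5 CPM in the PBS libraries of sets 1 to 3 and at 99.9, 105, and 308 CPM with LPS. The lowest LPS library was thus above the highest PBS library. The change was 5.37-fold (log2 2.42, SE 0.67, adjusted p = 0.0123, edgeR), and within the sets it was 2.00, 2.46, and 2.58 on the log2 scale. Without a block, the call was lost when PBS replicate 2 (log2 2.16, adjusted p = 0.0513), LPS replicate 3 (1.69, 0.0603), set 1 (2.55, 0.0606), or set 2 (2.42, 0.0785) was left out. With the library set as a block the change was 2.34 (SE 0.12, adjusted p = 1.38e-08).

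*Dusp2* (ENSMUSG00000027368.6, chr2:127336159-127338376, plus strand) encodes PAC-1, a nuclear phosphatase known from activated leukocytes. It was low in resting cells, at 1.49, 1.86, and 1.89 CPM (52 to 56 counts), and rose to 29.2, 38.02, and 105 CPM with LPS. All 3 LPS libraries were far above all 3 PBS libraries. This was the largest change of the 8 genes, 32.8-fold (log2 5.04, SE 0.60, adjusted p = 6.11e-05, edgeR), and it held with every library and every set left out in turn (log2 4.26 to 5.35).

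*Dusp16* (ENSMUSG00000030203.13, chr6:134715468-134792625, minus strand) encodes MKP-7, which acts on JNK and p38. It rose from 10.5, 12.8, and 18.7 CPM in PBS to 81.7, 95.3, and 175 CPM with LPS, with no overlap of the groups. The change was 8.36-fold (log2 3.06, SE 0.50, adjusted p = 5.29e-04, edgeR). It was the most even of the induced genes across sets, at 2.94, 2.88, and 3.22 on the log2 scale.

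*Dusp6* (ENSMUSG00000019960.7, chr10:99263231-99267489, plus strand) encodes MKP-3, the cytoplasmic ERK phosphatase. It was at 86.3, 57.5, and 126 CPM in PBS and at 45.9, 31.2, and 34.5 CPM with LPS, so every LPS library was below every PBS library. The decrease was 2.41-fold (log2 −1.27, SE 0.31, adjusted p = 0.00585, edgeR), and within sets it was −0.91, −0.88, and −1.86. It stayed called with each library or set left out (log2 −1.51 to −0.89). Its direction was thus opposite to that of the inducible *Dusp1* and *Dusp2* in the same libraries.

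The other 4 members were not called in LPS against PBS. *Dusp4* (ENSMUSG00000031530.6, chr8:34807297-34819894, plus strand), a nuclear phosphatase with activity toward ERK and JNK, was at 26.4, 18.4, and 48.0 CPM in PBS and at 32.1, 26.7, and 18.7 CPM with LPS. The sets disagreed, with LPS above PBS in sets 1 and 2 (log2 0.28 and 0.54) and below it in set 3 (−1.35), and the edgeR change was −0.26 (SE 0.46, adjusted p = 0.688). *Dusp5* (ENSMUSG00000034765.6, chr19:53529109-53542431, plus strand), a nuclear ERK phosphatase, was at 7.55, 4.00, and 18.2 CPM in PBS and at 12.1, 8.91, and 14.4 CPM with LPS. It was likewise higher with LPS in sets 1 and 2 (log2 0.68 and 1.14) and lower in set 3 (−0.34), with an edgeR change of 0.25 (SE 0.67, adjusted p = 0.802). Of its exon bases, 547 overlap an antisense gene, and whether counting used the strand is not given in the sources used here.

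*Dusp8* (ENSMUSG00000037887.7, chr7:142079490-142095843, minus strand) and *Dusp10* (ENSMUSG00000039384.8, chr1:184013302-184075636, plus strand, MKP-5) had the lowest mean levels per length of exon in every condition. In CPM, *Dusp2* was similarly low without LPS, with means of 1.75 in PBS and 1.26 with 3′SL. *Dusp8* was between 1.12 and 3.54 CPM in all 12 libraries (23 to 89 counts), and *Dusp10* between 0.919 and 3.50 CPM (20 to 63 counts). Neither was called with LPS, with changes of −0.35 (SE 0.38, adjusted p = 0.485) for *Dusp8* and 0.63 (SE 0.45, adjusted p = 0.276) for *Dusp10* in edgeR. *Dusp10* was higher with LPS in sets 2 and 3 (log2 1.01 and 0.99) and lower in set 1 (−0.29). With the library set as a block the changes were −0.33 (SE 0.31) and 0.59 (SE 0.32, adjusted p = 0.132). In block fits with a set left out, which were chosen after seeing the data, *Dusp10* was called without set 1 (1.05, adjusted p = 0.0404) and *Dusp5* without set 3 (0.91, adjusted p = 4.11e-04), and neither was called in the other 2 such fits.

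Scaling by total counts in place of TMM factors moved the median LPS change of all genes from −0.061 to −0.71, because TMM factors differed between libraries (0.700 to 1.30). On that scale the 4 called members kept their direction and call, at 1.71 for *Dusp1*, 4.31 for *Dusp2*, 2.38 for *Dusp16*, and −1.90 for *Dusp6*. *Dusp5* (−0.40) and *Dusp10* (−0.060) changed sign but stayed above the shifted median, and *Dusp8* (−1.003, adjusted p = 0.0291, edgeR) was called lower. *Dusp4* was not called on either scale (−0.87 with total counts, adjusted p = 0.109).

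Per length of exon, the make-up of the summed phosphatase mRNA differed between resting and LPS-activated BMDMs. In PBS, *Dusp6* made up 54.2%, 51.4%, and 47.2% of the summed CPM per kb of the 8 genes in sets 1 to 3, followed by *Dusp4* with a mean of 19.4% and *Dusp1* with 16.4%. With LPS, *Dusp1* was first in all 3 sets with 34.6%, 36.4%, and 48.2%, *Dusp2* was second with a mean of 21.9%, and *Dusp6* was at 16.8%, 11.4%, and 5.71%. The lowest *Dusp6* share in PBS was above the highest with LPS. The summed level was 57.2 ± 25.3 CPM per kb in PBS and 123 ± 61.0 with LPS (SD, n = 3), with the sum higher with LPS in every set. In 3′SL alone *Dusp6* again led with 46.4 ± 8.03%, and in LPS + 3′SL *Dusp1* led with 42.7 ± 6.39%, ahead of *Dusp6* with 18.9 ± 7.38% and *Dusp2* with 17.9 ± 3.80% (SD, n = 3).

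**Figure D2:**
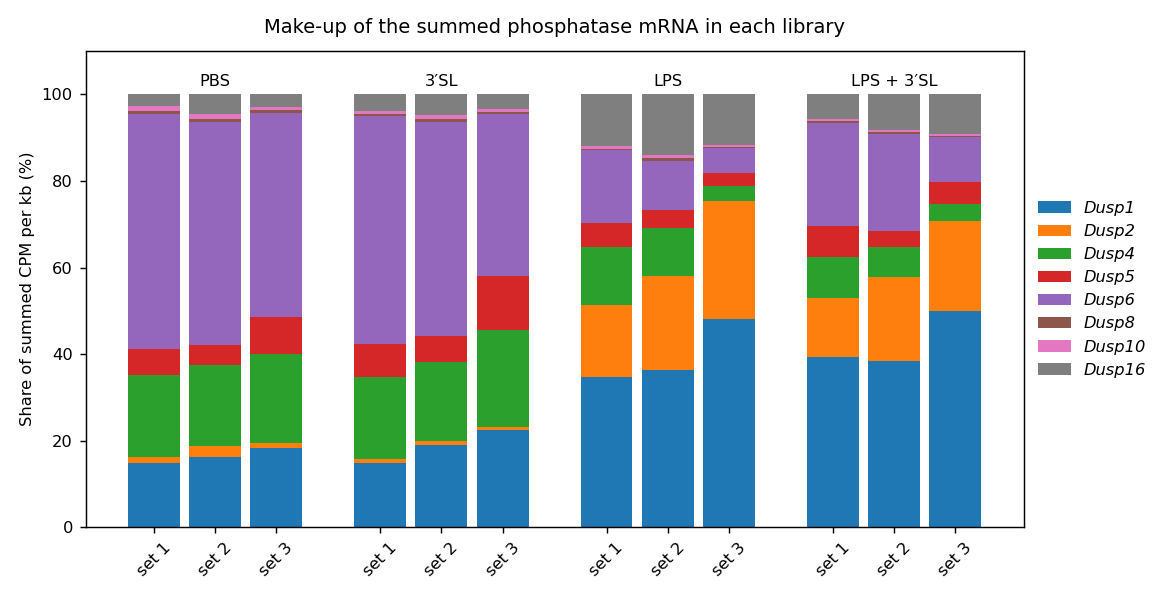
Share of each phosphatase in the summed CPM per kb of exon of the 8 genes (percent, axis from 0), with 1 bar per library grouped by condition. Dusp6 is the largest segment in every library without LPS (37.4% to 54.2%), and Dusp1 is the largest in every library with LPS.

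The order of levels (CPM per kb) was firm at some steps only. In PBS, *Dusp6* (28.7 ± 10.9) did not overlap *Dusp4* (11.3 ± 5.58), whereas *Dusp4*, *Dusp1* (9.62 ± 5.21), and *Dusp5* (4.01 ± 2.98) overlapped between neighbors (SD, n = 3). *Dusp16* (1.80 ± 0.54) was separate from *Dusp2* (0.872 ± 0.110), and *Dusp10* and *Dusp8* overlapped below 0.6 CPM per kb. With LPS, *Dusp1* (51.7 ± 35.8), *Dusp2* (28.7 ± 20.7), *Dusp16* (15.03 ± 6.44), and *Dusp6* (11.9 ± 2.45) each overlapped the next gene, and *Dusp4* (9.43 ± 2.46) did not overlap *Dusp5* below it (4.77 ± 1.11; SD, n = 3). The order of *Dusp1* above *Dusp2* above *Dusp16* nevertheless held in each of the 3 sets.

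Sequence upstream of the start of the genes that LPS changed is shown to set the letters of common response motifs beside these changes. The windows run from 250 to 51 bases before the RefSeq start of each gene (GRCm38.p6), 5′ to 3′ on the gene's strand, and 7 of the 8 members matched the table used, with no entry for *Dusp4*. RefSeq starts can differ from the GENCODE M21 coordinates given above. The windows of *Dusp1*, *Dusp8*, and *Dusp10* lie inside the M21 spans of these genes. Those of *Dusp5* and *Dusp10* overlap exons of genes on the other strand, by 200 and 171 bases. Capitals mark exact motif matches on either strand. These are the cAMP response element TGACGTCA (CRE) or its shorter core TGACG, which lies inside the full element, and the E-box CACGTG.

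Dusp1, chr17:26508523-26508722, minus strand: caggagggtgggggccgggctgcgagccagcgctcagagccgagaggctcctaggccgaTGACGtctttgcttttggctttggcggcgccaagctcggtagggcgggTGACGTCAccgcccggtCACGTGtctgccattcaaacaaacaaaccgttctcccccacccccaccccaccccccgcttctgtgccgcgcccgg
Dusp2, chr2:127335909-127336108, plus strand: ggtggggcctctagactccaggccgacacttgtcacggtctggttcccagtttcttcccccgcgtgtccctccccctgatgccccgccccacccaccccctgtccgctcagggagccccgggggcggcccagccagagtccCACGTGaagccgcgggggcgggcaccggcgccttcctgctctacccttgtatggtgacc
Dusp16, chr6:134792679-134792878, minus strand: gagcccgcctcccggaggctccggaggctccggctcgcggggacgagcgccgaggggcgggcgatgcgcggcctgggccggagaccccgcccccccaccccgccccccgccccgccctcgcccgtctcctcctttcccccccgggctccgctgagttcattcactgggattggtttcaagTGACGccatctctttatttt
Dusp6, chr10:99262981-99263180, plus strand: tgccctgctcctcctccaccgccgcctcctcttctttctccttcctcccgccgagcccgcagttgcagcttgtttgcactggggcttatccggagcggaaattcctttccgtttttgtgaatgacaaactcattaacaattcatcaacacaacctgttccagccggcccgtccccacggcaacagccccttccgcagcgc

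*Dusp1* held a full CRE, a further copy of the core, and an E-box, *Dusp2* held an E-box, *Dusp16* held the CRE core, and *Dusp6* held none of the motifs searched. Over the 250 bases upstream of 32851 starts in the table, 1.55% held the full CRE, 17.8% the core, and 6.02% the E-box. *Dusp8*, which was not called with LPS, held 2 copies of the full CRE, and *Dusp5*, also not called, held the core and 2 adjacent CArG boxes (the serum response element, in 1.47% of windows). The NF-κB motif, spelled GGGA-N-TTTCC or GGG-NN-TTCCC (1.88% of windows), the AP-1 motif TGANTCA (6.75%), the ETS motif CCGGAAG (6.91%), and TATAAA (12.4%) were in none of the 7 windows. A match is a description of letters, and a missing match says nothing of sites elsewhere.

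In the presence of 3′SL, LPS again raised *Dusp2* and *Dusp16* and lowered *Dusp6*. Over all genes, 29.2% were called in LPS + 3′SL against 3′SL, 14.3% higher and 14.8% lower, and of the 8 members 3 were called: *Dusp2* rose (log2 5.13, SE 0.62, adjusted p = 9.67e-05), *Dusp16* rose (1.62, SE 0.48, adjusted p = 0.0213), and *Dusp6* fell (−0.85, SE 0.30, adjusted p = 0.0486, edgeR). The *Dusp6* call was lost with DESeq2's size factors (−0.82, adjusted p = 0.0659), without any set, and without any single library other than PBS replicates 2 and 3 and 3′SL replicate 2 (log2 −1.04 to −0.46, adjusted p 0.0526 to 0.223, edgeR). That of *Dusp16* was lost without 3′SL replicate 1 or 2, LPS + 3′SL replicate 3, or set 1 or 2 (log2 0.95 to 1.77, adjusted p 0.0538 to 0.162, edgeR), and in a fit of only these 2 conditions (1.62, adjusted p = 0.0507). *Dusp1* (1.71, adjusted p = 0.0644) and *Dusp4* (−1.24, adjusted p = 0.0581) did not pass in edgeR and were both called by DESeq2 (31% of all genes) and by edgeR with the library set as a block (35.8%), at 1.77 with adjusted p = 1.79e-07 and −1.10 with adjusted p = 0.0234 in the latter, which gave 5 of 8. In block fits with a set left out, *Dusp4* was not called without set 2 (−1.33, adjusted p = 0.0535), and without set 3 *Dusp4* (−0.51, adjusted p = 0.00124) and *Dusp6* (−0.44, adjusted p = 9.87e-04) were under 1.5-fold. For *Dusp4*, LPS + 3′SL lay below 3′SL in every set (−0.49, −0.60, and −2.04), whereas LPS lay above PBS in sets 1 and 2. The remaining members were not called, at −0.38 for *Dusp5*, −0.0093 for *Dusp10*, and −0.58 for *Dusp8*, the first and second of which were positive in LPS against PBS. This comparison shares no library with LPS against PBS, but both were fitted with 1 estimate of the spread.

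In LPS-activated cells, *Dusp6* was measured higher and *Dusp16* lower with 3′SL in each of the 3 sets. Neither passed the adjusted threshold in edgeR without the library set as a block. None of the 14308 genes was called in LPS + 3′SL against LPS by edgeR, and none of the 8 members; 995 genes (6.95%) had an unadjusted p under 0.05, 111 (0.776%) were called by DESeq2, and 207 (1.45%) by edgeR with the library set as a block. The study, in contrast, reported genes altered by 3′SL with and without LPS at 1.5-fold and a false discovery rate below 0.05. Over all genes, 21.3% were higher and 25.7% lower in all 3 sets. *Dusp6* was at 45.9, 31.2, and 34.5 CPM with LPS and at 66.8, 59.0, and 59.7 CPM with LPS + 3′SL. All LPS + 3′SL libraries were above all LPS libraries, as in 6.24% of all genes tested, and the 3 values with 3′SL lay close together. The difference was 1.66-fold (log2 0.73, SE 0.30, unadjusted p = 0.0352, adjusted p = 0.662, edgeR), with 0.54, 0.92, and 0.79 within the sets. With the library set as a block it was 0.75 (SE 0.21, adjusted p = 0.0989), and with the same block in DESeq2 0.74 (SE 0.22, adjusted p = 0.0263), which is past the threshold, as were 1.98% of all genes. It ranged from 0.62 to 0.91 with each library or set left out. The level with LPS + 3′SL (61.8 ± 4.34 CPM, SD, n = 3) remained under that of PBS (89.8 ± 34.2 CPM), with overlapping libraries.

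*Dusp16*, the JNK and p38 phosphatase induced by LPS, was at 81.7, 95.3, and 175 CPM with LPS and at 39.1, 54.2, and 129 CPM with LPS + 3′SL, and the groups overlapped because set 3 was high in both conditions. The within-set differences were −1.06, −0.81, and −0.43 on the log2 scale, against an edgeR difference of −0.66 (SE 0.46, adjusted p = 0.959). With the library set as a block, the difference was −0.75 (SE 0.15, adjusted p = 0.0233, edgeR) or −0.76 (adjusted p = 2.40e-04, DESeq2), and *Dusp16* was then called. Without set 3 and without a block it was −0.92 (adjusted p = 0.0429, edgeR).

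In the block fit without set 3, *Dusp6* (0.74, adjusted p = 4.10e-04), *Dusp16* (−0.92, adjusted p = 1.69e-04), and *Dusp4* (−0.60, adjusted p = 0.00404) were called in edgeR. No member was called in the block fits without set 1 or without set 2, where *Dusp16* was at −0.61 (adjusted p = 0.371) and −0.72 (adjusted p = 0.406) and *Dusp6* at 0.87 (adjusted p = 0.494) and 0.65 (adjusted p = 0.555). Over all genes tested, the fits without set 1 and without set 2 called 1 and 0 genes, and the fit without set 3 called 371.

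Over all 12 libraries, the other 6 members were not called in LPS + 3′SL against LPS with or without the block, by edgeR or DESeq2. *Dusp1* was nearly equal in both conditions within sets, with 117, 107, and 302 CPM in LPS + 3′SL and differences of 0.22, 0.022, and −0.030 (edgeR 0.034, SE 0.64; with the block 0.068, SE 0.11). *Dusp2* was lower in all 3 sets by small amounts, at 24.2, 32.4, and 75.7 CPM (−0.27, −0.23, and −0.47; edgeR −0.38, SE 0.50). *Dusp4* (−0.40, SE 0.46), *Dusp5* (0.39, SE 0.67), and *Dusp10* (−0.52, SE 0.45) each had 1 set opposite to the other two. *Dusp8* was at −0.087 (SE 0.38), and its sign changed with total counts (0.0064).

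**Figure D3:**
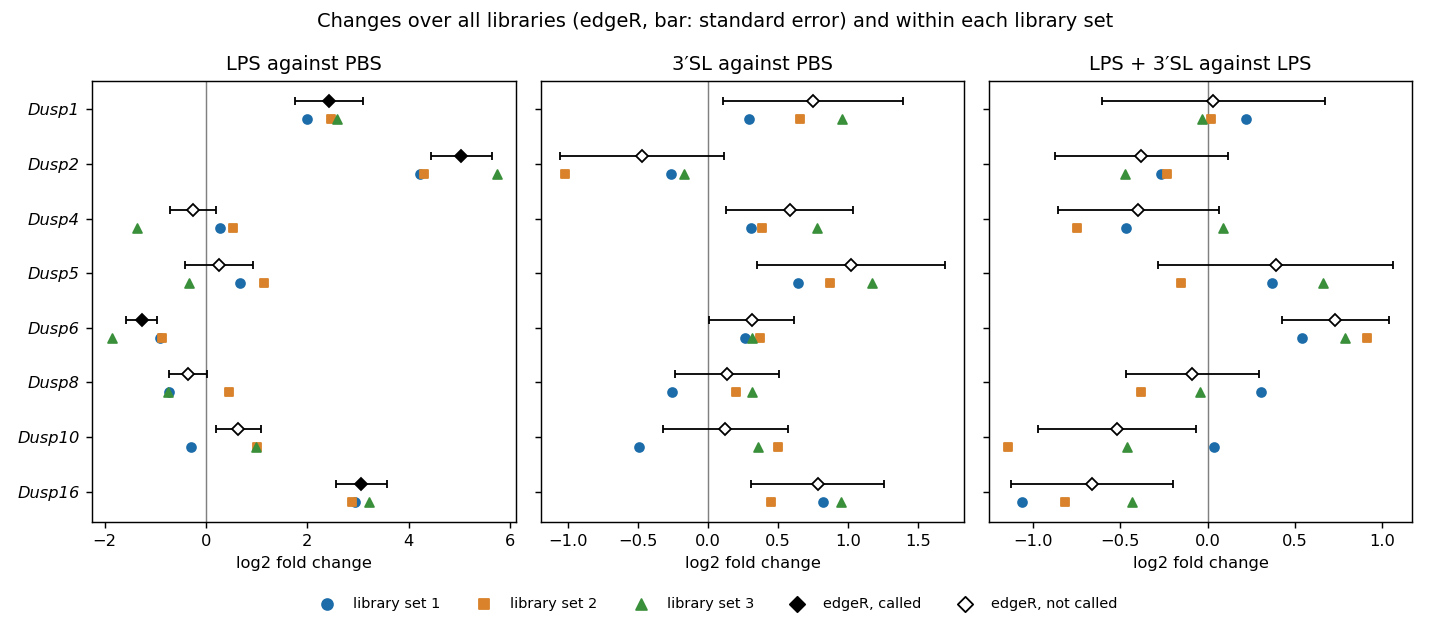
Log2 fold change of each phosphatase in 3 comparisons, with diamonds for the edgeR estimate over all libraries (bar, standard error; filled, called) and colored points for the log2 ratio within each library set; the axis range differs between panels. The estimates and calls shown are from the fit without the library set as a block. In that fit only LPS against PBS holds called members, whereas Dusp16 lies to the right of 0 in all sets for 3′SL against PBS and to the left in all sets for LPS + 3′SL against LPS.

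In resting cells, 5 members were higher with 3′SL in each set, none of them called by edgeR without the library set as a block. No gene was called in 3′SL against PBS by edgeR, although 1439 genes (10.1%) were below 0.05 before adjustment, and DESeq2 called 101 (0.706%) and edgeR with the library set as a block 406 (2.84%). *Dusp1*, *Dusp4*, *Dusp5*, *Dusp6*, and *Dusp16* were higher in all 3 sets, and *Dusp2* was lower in all 3; over all genes, 25.8% were higher and 25.5% lower in all sets. *Dusp1* was at 30.6, 30.2, and 99.9 CPM with 3′SL (within sets 0.29, 0.66, and 0.96; edgeR 0.75, SE 0.64, adjusted p = 0.753), and with the block it was called (0.64, SE 0.11, adjusted p = 0.0129, edgeR). *Dusp16* was at 18.6, 17.6, and 36.1 CPM (within sets 0.82, 0.45, and 0.95; edgeR 0.78, SE 0.47, adjusted p = 0.629) and was also called with the block (0.74, SE 0.15, adjusted p = 0.0220). These were the 2 members that the block fit in edgeR called, and the same block in DESeq2, which called 4.53% of all genes, added *Dusp5* (0.95, adjusted p = 0.0206). Both blocked edgeR calls were lost without set 1 (*Dusp1* 0.81, adjusted p = 0.118; *Dusp16* 0.70, adjusted p = 0.168) and without set 2 (0.62, adjusted p = 0.151; 0.88, adjusted p = 0.135). Without set 3, *Dusp16* (0.62, adjusted p = 0.00712) and *Dusp5* (0.73, adjusted p = 0.0184) were called, and *Dusp1* (0.45, adjusted p = 0.0180) was under 1.5-fold. Over all genes tested, the block fits without set 1, set 2, and set 3 called 2, 3, and 323 genes.

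*Dusp5* had the largest estimate, at 11.8, 7.40, and 41.1 CPM with 3′SL (within sets 0.64, 0.87, and 1.17; edgeR 1.02, SE 0.67, adjusted p = 0.661; with the block 0.94, SE 0.28, adjusted p = 0.0743). *Dusp6* was at 103, 74.4, and 157 CPM, and its differences of 0.26, 0.37, and 0.32 were the most even of the 8 (edgeR 0.31, SE 0.30, adjusted p = 0.784). *Dusp4* was at 32.6, 24.1, and 82.3 CPM (edgeR 0.58, SE 0.45, adjusted p = 0.721). The 3′SL library of set 3 held the highest resting level of *Dusp1*, *Dusp4*, *Dusp5*, *Dusp6*, *Dusp8*, *Dusp10*, and *Dusp16*. Without that library and without a block, the estimates were −0.11 for *Dusp1*, −0.17 for *Dusp4*, −0.087 for *Dusp5*, −0.053 for *Dusp6*, and 0.33 for *Dusp16*, with the PBS library of set 3 still in the fit. *Dusp2* was at 1.23, 0.875, and 1.67 CPM (22 to 42 counts), and *Dusp8* and *Dusp10* differed in sign between sets.

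*Dusp16* was the only member whose difference with 3′SL had 1 sign in all sets without LPS and the opposite sign in all sets with LPS. Over all genes tested, 6.55% rose in all 3 sets without LPS and fell in all 3 with LPS. The interaction of LPS and 3′SL was −1.88, −1.26, and −1.38 within the sets and −1.44 in edgeR (SE 0.66, unadjusted p = 0.0527, adjusted p = 0.819). No gene was called for the interaction by edgeR (872 genes, 6.09%, were below 0.05 before adjustment, and DESeq2 called 44, or 0.308%), whereas with the library set as a block 222 (1.55%) were called, and *Dusp16* among them (−1.49, SE 0.21, adjusted p = 0.0110). In the block fits it was no longer called without set 1 (−1.31, adjusted p = 0.322) or set 2 (−1.60, adjusted p = 0.190), and it was called without set 3 (−1.55, adjusted p = 2.13e-04), as was *Dusp4* (−0.92, adjusted p = 0.00298). Over all genes tested, the block fits without set 1, set 2, and set 3 called 1, 0, and 457 genes for the interaction. The block in DESeq2 called 3.54% of all genes, with *Dusp16* and *Dusp1* (−0.59, SE 0.19, adjusted p = 0.0370) among them. The fold induction of *Dusp16* by LPS was accordingly 8.36 without 3′SL and 3.08 with it. For *Dusp6* the interaction had the opposite sign in every set (0.28, 0.54, and 0.47) and was not called by any fit.

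Spread between libraries followed the sets, more for some members than for others. With the library set as a block, the SE in LPS against PBS (edgeR) fell from 0.67 to 0.12 for *Dusp1* and from 0.38 to 0.31 for *Dusp8*. Averaged over the 4 conditions, all 8 members had their highest level in set 3, by 1.59-fold (*Dusp8*) to 3.40-fold (*Dusp5*) over the lowest set. *Dusp1* averaged 68.0, 65.4, and 190 CPM in sets 1 to 3, and *Dusp5* 11.8, 7.08, and 24.1 CPM. Single conditions departed from this order, as with LPS *Dusp4* (18.7 CPM) was lowest in set 3 and *Dusp6* (34.5 CPM) was lower in set 3 than in set 1. Beside this, the 6 neutrophil and progenitor markers summed to 252, 498, and 436 CPM in the PBS, LPS, and LPS + 3′SL libraries of set 3, against 67.8 to 224 CPM in those of the other sets. In the 3′SL library of set 3, which held the highest resting level of 7 members, they were at 135 CPM, against 75.6 and 141 CPM with 3′SL in sets 1 and 2. From PBS to LPS, the sums of these 6 markers went from 67.8 to 111, 135 to 224, and 252 to 498 CPM in sets 1 to 3. Whether they reflect such cells, and the part of such cells in the phosphatase levels, was not tested. Summed endothelial (16.1 to 25.8 CPM) and dendritic cell markers (5.52 to 15.5 CPM) were higher in the 6 libraries with LPS than in those without (5.17 to 10.5 and 0.912 to 2.23 CPM), and B cell, T and NK, and mast cell and erythroid markers stayed at or below 2.75, 0.16, and 0.21 CPM.

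Among members, *Dusp1* and *Dusp16* followed each other most closely over the 12 libraries (Pearson's r = 0.940 of log2 CPM), then *Dusp2* and *Dusp16* (0.922). The genes outside the family nearest to each member were *Ubtd1* (0.993) and *Sphk2* (0.991) for *Dusp1*, *Rasa4* (0.996) and *Crybg1* (0.995) for *Dusp2*, and *Znrf1* (0.996) and *Cd86* (0.991) for *Dusp16*. Such neighbors were common for the genes that LPS induced, as 952, 1986, and 1667 genes reached an r of 0.9 with *Dusp1*, *Dusp2*, and *Dusp16*. *Dusp6* had 45 such genes, led by *Emp2* (0.957) and *Cd151* (0.957), and *Dusp5* had 7, led by *Eaf1* (0.942) and *Tmeff1* (0.929). For *Dusp4* no gene reached 0.9 (*Rpl18* 0.894, *Rpl36al* 0.893), and *Dusp8* (*Tkt* 0.904, *Gtpbp4* 0.890) and *Dusp10* (*Gm16230* 0.901, *Rab10os* 0.890) had 1 each. These correlations share condition, set, and library scaling, and they describe likeness over these 12 libraries only.

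The rest of the MAP kinase pathway was read for the same LPS comparison, in which 18.3% of all genes were called higher and 20.2% lower (20.5% and 24% with the library set as a block). The remaining catalytically active MKPs both fell: *Dusp7*, like *Dusp6* a cytoplasmic ERK phosphatase, from 79.1 to 29.4 CPM (log2 −1.43, SE 0.13, adjusted p = 1.10e-05), and the scarce *Dusp9* from 1.38 to 0.370 CPM (−1.87, SE 0.59, adjusted p = 0.0228, edgeR). *Dusp6*, *Dusp7*, and *Dusp9* form the cytoplasmic ERK phosphatase group, and all 3 fell with LPS. Of 11 tested atypical dual-specificity phosphatases, which lack the MAP kinase–binding domain, 2 rose (*Dusp28*, log2 2.69, and *Dusp11*, 0.84) and 2 fell (*Dusp3*, −1.51, and *Dusp18*, −2.01). With the block *Dusp12* (−0.72, adjusted p = 0.00371), *Dusp13* (−1.57, adjusted p = 0.0207), and *Dusp19* (−0.69, adjusted p = 0.00849) were also called lower, 5 of 11 in all, and DESeq2 called *Dusp23* higher (0.60, adjusted p = 5.83e-04). Of 4 other phosphatases that act on MAP kinases, *Ppm1b* rose (0.64), and *Ppm1d* (−1.03) and the hematopoietic tyrosine phosphatase *Ptpn7* (−1.004) fell.

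Of the 9 tested genes of ERK, JNK, and p38 MAP kinases, 2 were called, beside 38.5% of all genes. None of 3 ERK genes was called, and 1 of 2 JNK genes (*Mapk9*, 0.93) and 1 of 4 p38 genes (*Mapk11*, 1.51) rose; the block also called *Mapk12* lower (−1.70, adjusted p = 0.0307). Of 7 MAP kinase kinases, 2 rose, *Map2k1*, the activator of ERK (1.76), and *Map2k4*, an activator of JNK (1.49), and with the block *Map2k6*, an activator of p38, was called lower (−2.20, adjusted p = 0.00400). Of 16 MAP3 kinases, 2 rose and 7 fell, with *Map3k8* (Tpl2, which links TLR4 to ERK; 2.81) and *Braf* (0.95) higher and *Map3k9* (−2.02), *Map3k12* (−1.69), and *Map3k4* (−1.62) the largest decreases. Of 10 kinases activated by MAP kinases, 3 rose and 4 fell, with *Mapkapk2*, the p38 target that stabilizes cytokine mRNAs, from 161 to 1333 CPM (3.05) and *Mknk2* from 130 to 23.0 CPM (−2.50) at the extremes; *Rps6ka4* (1.29) and *Rps6ka3* (0.87), and *Rps6ka5* (−2.46) and *Rps6ka2* (−1.24), were the next largest. All values are log2 changes from edgeR.

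Feedback inhibitors and output genes of ERK did not move in 1 direction. Of 6 Sprouty and Spred genes, which inhibit ERK upstream of the kinase cascade, *Spred1* rose (1.88) and *Spred2* fell (−1.09). Of 10 genes listed as outputs of ERK signaling, *Ier3* (3.15), *Egr1* (3.11), and *Epha4* (0.0984 to 2.76 CPM) rose, and *Ccnd1* (−1.62), *Etv5* (−1.497), and *Myc* (−1.45) fell, so that *Dusp6*, itself a known ERK output, had company in both directions. With the block *Phlda1* was also called higher (1.65, adjusted p = 9.49e-04). With total counts, *Ppm1b* (−0.016), *Dusp11* (0.17), *Rps6ka3* (0.20), *Mapk9* (0.27), and *Braf* (0.30) were no longer called. On that scale 5 of the 9 MAP kinase genes were called (*Mapk3*, *Mapk7*, *Mapk8*, and *Mapk12* lower and *Mapk11* higher). Also called lower were 12 of 16 MAP3 kinases and 4 of 7 MAP kinase kinases. These counts stand beside 1535 of all 14308 genes tested called higher and 6657 called lower with total counts. The other pathway genes named as called by edgeR without a block kept their direction and call. Without a block, edgeR called none of the 14308 genes tested in either 3′SL comparison or the interaction, and so none of these pathway genes. Before adjustment, 2 of the 10 ERK output genes were higher and 1 lower in LPS + 3′SL against LPS (p below 0.05, edgeR). Over all genes, 6.95% were below 0.05. The 2 higher were *Ccnd1* (0.67, adjusted p = 0.157) and *Etv5* (0.44, adjusted p = 0.301), and the lower was *Egr1* (−1.24, adjusted p = 0.153, edgeR). With the block, the pathway lists were read in LPS against PBS only.

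**Figure D4:**
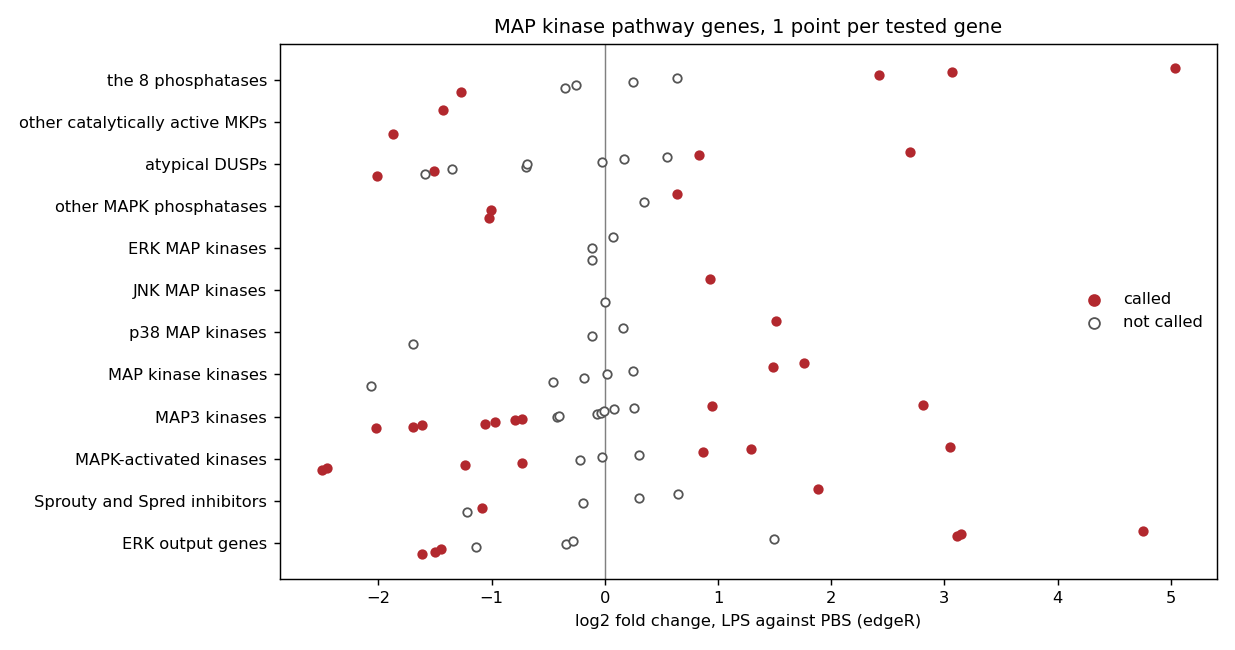
Log2 fold change in LPS against PBS (edgeR) for the 8 phosphatases and 11 further groups of MAP kinase pathway genes, 1 point per tested gene, filled where called. Dusp2 has the highest value shown at 5.04, and both further catalytically active MKPs lie left of 0.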

How the data were processed

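RNA-Seq (TruSeq stranded, polyA) of 12 BMDM libraries was used, with conditions from the labels and doses and time from the study's methods (the treatment field of the labels describes mouse injections instead). Values are raw counts of reads on each gene, deposited by the authors with no normalization. The submitters' processing notes name FastQC, Trimmomatic, STAR, HTSeq, and DESeq2; versions, genome build, annotation, and strand setting are not given in the sources used here. If reads were counted without strand, overlapping antisense genes would share them. The closing lines of each table, which name no gene, were left out of library sizes (ambiguous reads, 650254 to 869895 per library; reads aligned to several places, 8634639 to 11273250). Identifiers were matched without version to GENCODE M21 (GRCm38), naming 42462 of 43626 genes, and upstream sequences and starts come from RefSeq (GRCm38.p6). Exons of *Dusp1* and *Dusp8* overlap genes of the other strand by 11 and 66 bases.

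Counts were analysed with edgeR 4.0.16 in R 4.3.3. After filterByExpr and TMM scaling, quasi-likelihood fits with the 4 conditions and no covariate used all 12 libraries, with Benjamini-Hochberg adjustment over 14308 genes. Levels are CPM on scaled library sizes (per kb, divided by exon bases in M21), and correlations use log2 CPM with a prior count of 2. The code was tested on simulated data. Alternatives were DESeq2 1.42.0, other scalings and filters, fits of only the groups compared, leaving out libraries, and the library set as a block; leaving out a set within the block fit, and the block with total counts, were added after seeing the data.

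The library sets were taken from the running numbers in the labels. After condition means were removed, libraries of a set correlated (mean 0.596, lowest 0.449; between sets −0.346), clustering placed 12 of 12 libraries in the run of their number, and the common biological coefficient of variation fell from 0.310 to 0.133 with the block. Blocked values are given beside a result where they change its call, and without each set where a blocked call of a member is then lost.

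The members and the pathway lists were chosen with earlier results of these data known. A gene of the MAP3 kinase list is not reported here and was left out of its counts. Named were every member; from the other lists, genes called in a 3′SL comparison or the interaction and, for LPS against PBS, the 3 called genes with the largest change per direction and list; and the 2 genes most correlated with each member. Replicate numbers follow accession order and equal the set number.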

Additional observations from a re-analysis of the deposited data

Results flagged for a closer look

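*Dusp16* was flagged because its measured difference with 3′SL had opposite signs in resting and LPS-activated macrophages in every set. It was higher with 3′SL in all 3 sets without LPS and lower in all 3 with LPS, as were 6.55% of all genes tested. The interaction estimate was −1.44 on the log2 scale and did not pass (SE 0.66, unadjusted p = 0.0527, adjusted p = 0.819, edgeR). The interaction was past the threshold with the library set as a block (−1.49, adjusted p = 0.0110, edgeR), as were 1.55% of all genes, and not without it. It was not past the threshold in the block fits without set 1 (−1.31, adjusted p = 0.322) or without set 2 (−1.60, adjusted p = 0.190). Over all genes tested, these fits called 1 and 0 genes.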

How the results depend on the processing

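The member values were recomputed 1072 times over all alternatives. Of these, 944 kept direction and side of the threshold, 47 gained a call, 24 lost one, and 57 changed sign, none of them a called value, and 48 of the 57 came from leaving libraries out. The other sign changes under total counts in LPS against PBS were *Dusp5* (−0.40, and −0.15 with the block) and *Dusp10* (−0.060 and −0.065). *Dusp8* changed sign under total counts in LPS + 3′SL against LPS (0.0064, and 0.011 with the block). In the interaction it did so only with block and total counts together (0.0025). *Dusp10* changed sign in LPS + 3′SL against 3′SL with DESeq2's size factors (0.024) and DESeq2 (0.023).

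Counts of called genes moved by more than 1.5 times as follows. In LPS against PBS 5502 became 9098 with block and total counts, and in LPS + 3′SL against 3′SL 4171 became 7422. In 3′SL against PBS 0 became 101 with DESeq2, 406 with the block, 648 with the block in DESeq2, 365 with block and total counts, and 620 with unadjusted p. In LPS + 3′SL against LPS 0 became 1 with DESeq2's size factors or total counts, 2 with all genes of at least 1 count, 111 with DESeq2, 207 with the block, 284 with the block in DESeq2, 218 with block and total counts, and 402 with unadjusted p. For the interaction the last 5 settings gave 44, 222, 506, 136, and 567. Of the members, the block, the block in DESeq2, and the block with total counts called 2, 3, and 1 in 3′SL against PBS, 1, 2, and 1 in LPS + 3′SL against LPS (1 also with unadjusted p), and 1, 2, and 1 in the interaction; in LPS + 3′SL against 3′SL, 3 became 5 with total counts, DESeq2, unadjusted p, and either block, and 6 with block and total counts.

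Leaving out each library or set gave 3516 to 6043 genes and 3 to 5 members in LPS against PBS, 0 to 323 and 0 to 2 in 3′SL against PBS, 0 to 371 and 0 to 3 in LPS + 3′SL against LPS, 2183 to 4838 and 1 to 5 in LPS + 3′SL against 3′SL, and 0 to 457 and 0 to 2 in the interaction. All maxima of genes were block fits without set 3. Ranges that crossed 0, on the log2 scale, were in LPS against PBS −0.55 to 0.42 for *Dusp4* and −0.13 to 1.02 for *Dusp5*; in 3′SL against PBS −0.11 to 1.28 for *Dusp1*, −0.17 to 1.05 for *Dusp4*, −0.087 to 1.80 for *Dusp5*, −0.053 to 0.63 for *Dusp6*, −0.34 to 0.41 for *Dusp8*, and −0.18 to 0.45 for *Dusp10*; in LPS + 3′SL against LPS −0.61 to 0.77 for *Dusp1*, −1.02 to 0.39 for *Dusp2*, and −0.30 to 0.17 for *Dusp8*; in LPS + 3′SL against 3′SL −0.77 to 0.70 for *Dusp5* and −0.45 to 0.28 for *Dusp10*; and in the interaction −1.36 to 0.14 for *Dusp1*, −0.55 to 0.86 for *Dusp2*, −1.40 to 0.48 for *Dusp5*, and −0.53 to 0.26 for *Dusp8*. The cause of these shifts was not tested. With 3 libraries per condition, 1 set with levels up to 3.40-fold above the lowest set limits each unblocked comparison, and *Dusp8* and *Dusp10* had 20 to 89 counts per library. *Dusp2* had 52 to 56 counts in the PBS libraries and 22 to 42 with 3′SL alone, the levels that its LPS changes are measured from.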
